A study of Mus musculus with 10 samples.

Results

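Siglecs are cell-surface lectins of the immunoglobulin superfamily that read sialic acid on glycans, and 6 of their genes were examined here together with 4 genes of enzymes that make or remove this sugar. The 10 genes (Cd22, Mag, Cd33, Siglec1, Siglec5, Siglech, Neu1, Neu3, Cmas and Gne) were taken by symbol from the 38215 genes of the deposited table, and each symbol matched 1 row. They had been chosen with earlier results of the comparison of recipients in view, so their differences between recipients are given as a description and carry no p-value. How many of them passed the threshold of the fit across all genes is counted once, beside the background share of all genes, and supports nothing here. Of the 10 genes, 9 had enough counts to enter the fit across all genes, and Siglech did not.

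The cells were GFP+ splenocytes of mice with secondary-transplant acute myeloid leukaemia (AML). All of them derived from lineage-depleted marrow transduced with retroviral AML1-ETO, a fusion of a RUNX transcription factor with a corepressor, and the mutant Nras oncogene named NrasG12D, both expressed from a vector that carries GFP, and all had first been grown in Rag2-/-γc-/- mice. The second hosts were either 5 immunocompetent C57BL/6J mice (libraries 1, 3, 4, 5 and 6) or 5 Rag2-/-γc-/- mice (libraries 7 to 11), which lack T, B and NK cells but keep their myeloid cells. Age, sex and the number of primary leukaemias are not in the labels, so an error given here covers the spread between these recipients only. The design names immunoediting, the shaping of a tumour by the host's immune system, as the question behind the comparison.

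Sialic acid ends many glycan chains of the cell surface. Gne starts its synthesis from a nucleotide sugar, Nans and Nanp complete it, Cmas activates it with CMP in the nucleus, the transporter Slc35a1 carries CMP-sialic acid into the Golgi, and sialyltransferases attach it to glycans. The sialidases Neu1, in the lysosome, and Neu3, at the plasma membrane with a preference for gangliosides, take it off again. Siglecs such as CD22 and Siglec-F carry cytoplasmic tyrosine motifs that recruit the phosphatases SHP-1 and SHP-2 (Ptpn6 and Ptpn11) and restrain activation. Sialoadhesin (Siglec1) has a long extracellular part and serves macrophages in adhesion and capture, and Siglec-H couples to the activating adaptor DAP12 (Tyrobp).

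Expected counts summed to 28157745 to 62461126 per library, and 13966 genes were tested. Leukaemia and myeloid genes were present in all 10 libraries, with Ptprc at 410 to 743 CPM (counts scaled to a common library size by the TMM method), Itgam at 398 to 1160 CPM and Irf8 at 917 to 2220 CPM, while the granulocyte precursor genes Mpo and Elane did not exceed 0.796 CPM. Libraries stood apart within both groups. C57BL/6J library 1 held 154 CPM of 9 B cell markers in sum, against 1.81 to 21.7 CPM in the other 4 C57BL/6J libraries. This sum leaves out the abundant genes Ighm, Bank1 and Fcrla, a choice made after the values were seen. With them included, library 1 was at 662 CPM, against 420 to 457 CPM in the other 4. Rag2-/-γc-/- libraries 7, 8 and 9 differed from 10 and 11 in Cd34 (374 to 489 CPM against 202 and 227 CPM) and Irf8 (917 to 1080 CPM against 1710 and 1790 CPM). The T cell list was higher in sum in C57BL/6J libraries (85 ± 23.6 against 34.9 ± 10.9 CPM, SD; exact permutation test, two-sided, adjusted p = 0.0357 over 9 marker lists), as were NK cell markers (16.2 ± 3.49 against 7.25 ± 3.11 CPM; exact permutation adjusted p = 0.0357) and the leukaemia and myeloid list (6290 ± 290 against 5580 ± 339 CPM; exact permutation adjusted p = 0.0476). The T and NK cell differences missed the threshold without library 7, 8 or 9 (exact permutation adjusted p = 0.0714 each). Their groups did not overlap: C57BL/6J libraries held at least 62.4 and 13 CPM, Rag2-/-γc-/- libraries at most 46.9 and 10.4 CPM. With a library fewer the permutation test is coarser, so these misses do not show that the differences rest on those libraries. The leukaemia and myeloid difference missed the threshold without any 1 library other than C57BL/6J library 1 and Rag2-/-γc-/- library 11 (exact permutation adjusted p up to 0.0952). The last list did not move as one: Irf8 (1990 against 1310 CPM) and Wdfy4 (2090 against 1800 CPM) made up most of it and were higher in C57BL/6J recipients without passing the threshold. Its gene Kit rose there (4.88 against 0.252 CPM; edgeR adjusted p = 7.19e-05), Cd34 fell (129 against 336 CPM; edgeR adjusted p = 0.00592), and Itgam was at 578 against 942 CPM (edgeR adjusted p = 0.0553). Most of the T cell sum was Cd8a (14.9 to 107 CPM) and most of the NK cell sum Klrk1 (2.45 to 19.5 CPM). Both were also present in Rag2-/-γc-/- libraries. The T cell receptor gene Cd3e was low, at 0.152 to 3.42 CPM in C57BL/6J and at most 0.0327 CPM in Rag2-/-γc-/- libraries. Of the T cell list, Cd8a (edgeR adjusted p = 0.0161) and Zap70 (1.23 against 0.0118 CPM; edgeR adjusted p = 0.00443) were called higher in C57BL/6J recipients and none lower. Cd5 went the other way without passing the threshold (1.43 against 2.83 CPM). The part of these cell types in the results was not tested.

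Members of the set whose libraries did not overlap between recipients were Cd22, Mag and Neu3. Cd22 and Mag are neighbours on chromosome 7, and Neu3 lies further along the same chromosome, which carries 6 of the 10 genes. Their promoters, from 250 bases before the RefSeq start site to 50 bases after it, are shown because these are the start regions of the genes that separated the recipients. They are written 5′ to 3′ in the direction of transcription, on the minus strand of GRCm38.p6. Capitals mark matches to 3 motifs searched on both strands: GAGGAA (core of PU.1 sites), TGTGGT (core of RUNX sites) and TTCNNNGAA (GAS, the site bound by STAT dimers).
Cd22, chr7:30878979-30879278: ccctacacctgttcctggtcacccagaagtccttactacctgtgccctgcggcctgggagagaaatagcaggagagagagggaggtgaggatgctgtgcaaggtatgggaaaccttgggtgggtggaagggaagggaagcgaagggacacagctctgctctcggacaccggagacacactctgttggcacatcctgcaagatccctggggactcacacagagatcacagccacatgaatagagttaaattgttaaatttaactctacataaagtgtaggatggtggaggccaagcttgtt
Mag, chr7:30914272-30914571: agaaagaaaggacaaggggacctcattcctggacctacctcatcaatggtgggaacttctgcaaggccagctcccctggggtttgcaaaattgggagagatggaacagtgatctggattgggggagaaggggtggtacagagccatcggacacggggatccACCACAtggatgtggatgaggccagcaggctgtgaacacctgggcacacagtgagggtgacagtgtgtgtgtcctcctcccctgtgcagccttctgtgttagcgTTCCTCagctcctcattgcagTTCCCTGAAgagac
Neu3, chr7:99828368-99828667: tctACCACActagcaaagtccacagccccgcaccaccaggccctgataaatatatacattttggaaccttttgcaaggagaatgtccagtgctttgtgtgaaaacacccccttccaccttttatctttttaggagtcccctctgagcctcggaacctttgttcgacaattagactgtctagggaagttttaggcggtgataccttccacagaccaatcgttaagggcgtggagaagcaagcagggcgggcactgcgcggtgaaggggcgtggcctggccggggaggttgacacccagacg
The window of Cd22 held none of the 3 motifs, that of Mag held 1 match to each, and that of Neu3 held 1 match to the RUNX core alone. Members whose groups overlapped held such matches too. The window of Siglech held 1 match to each motif, and those of Cd33 and Siglec5 held 1 PU.1 and 1 RUNX core each. That of Cmas held 2 PU.1 cores, and those of Neu1 and Gne held none of the motifs. Of 32851 RefSeq promoters of the same length, 28.3% held the PU.1 core, 16.8% the RUNX core and 8.3% the GAS motif. These matches describe letters in a window and show no binding. RefSeq listed a promoter for 9 of the 10 genes, with 3 start sites for Mag, of which the one nearest to the gene's 5′ end in the deposited table was taken. The single start site listed for Cd22 lies 1314 bases inside the 5′ end of the deposited gene.

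Per kilobase of exon, which allows levels of different genes to be set side by side, the enzymes Neu1 and Cmas and the receptor gene Siglec5 were the abundant members. Over all 10 libraries the mean level was 28.2 ± 3.97 CPM per kb for Neu1 (SD, n = 10), 25.7 ± 3.24 for Siglec5 and 19.7 ± 2.33 for Cmas. After a gap came Cd22 (5.62 ± 3.5 CPM per kb), Gne (4.04 ± 0.306), Neu3 (3.51 ± 1.85), Siglec1 (2.17 ± 1.78), Cd33 (1.39 ± 0.91) and Mag (1.14 ± 0.5), with Siglech last at 0.0559 ± 0.0315. Only the steps from Cmas to Cd22 and from Mag to Siglech were free of overlap over the libraries. Within the recipient groups the order changed: Cd22 was the sixth gene in C57BL/6J recipients, at 2.58 ± 1.91 CPM per kb (n = 5), and the fourth in Rag2-/-γc-/- recipients, at 8.66 ± 0.869, where it stood clear of Gne below it. Neu3 was the fourth gene in C57BL/6J recipients (5.23 ± 0.53 CPM per kb) and the eighth in Rag2-/-γc-/- recipients (1.78 ± 0.159).

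**Figure D1:**
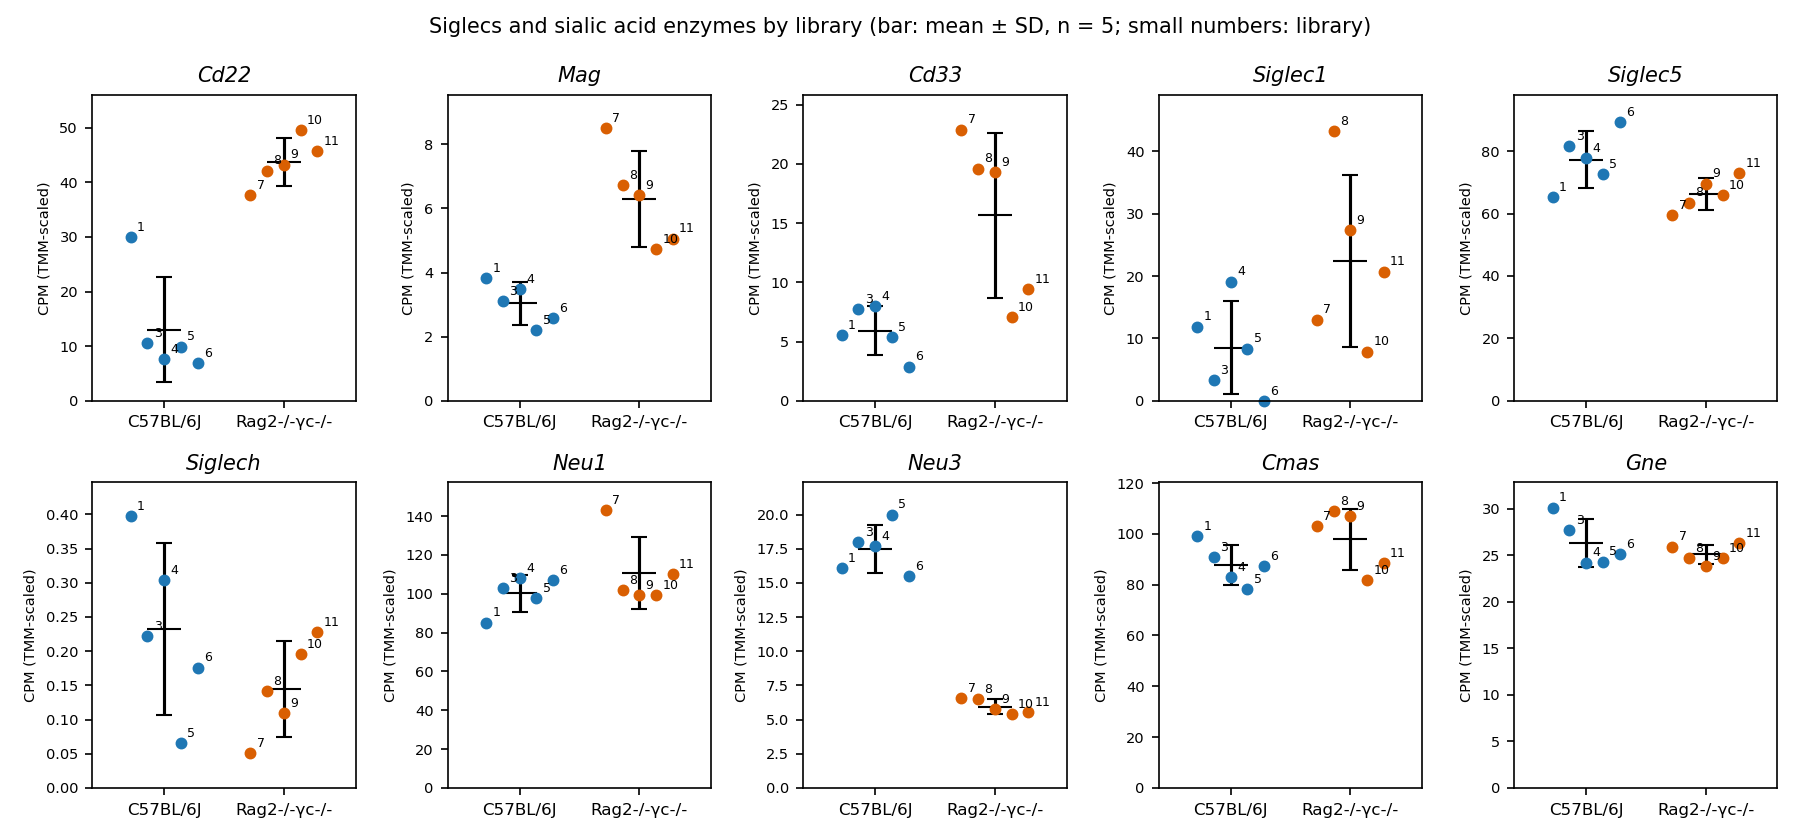
TMM-scaled CPM (vertical axes, linear from 0) of each of the 10 genes in the 5 C57BL/6J (blue) and 5 Rag2-/-γc-/- (orange) libraries, with library numbers beside the points and the mean ± SD of each group as bars. Cd22, Mag and Neu3 show no overlap between groups, and Siglec1 has its lowest point, 0.0252 CPM, in C57BL/6J library 6.

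Among the inhibitory receptors, Cd22 had the largest fold difference when all libraries were used, but not without libraries 10 and 11 (log2 fold change -1.66, against -1.80 for Cd33). CD22 is known as a brake on the B cell receptor. Its gene (chromosome 7, 30865402 to 30880342, GRCm38, minus strand, protein-coding) was at 30, 10.6, 7.61, 9.92 and 6.89 CPM in C57BL/6J libraries 1, 3, 4, 5 and 6. In Rag2-/-γc-/- libraries 7 to 11 it was at 37.7, 42.1, 43.2, 49.5 and 45.7 CPM. All Rag2-/-γc-/- libraries lay above all C57BL/6J libraries, among which library 1 stood alone near the upper group. The fitted level was 3.37-fold higher in Rag2-/-γc-/- recipients (log2 fold change, C57BL/6J minus Rag2-/-γc-/-, of -1.75 ± 0.36, SE), and the log2 fold change was -2.32 without C57BL/6J library 1.

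Several genes of mature B cells had another pattern across recipients than Cd22. Cd79b, which encodes a signalling chain of the B cell receptor, was at 22.3 CPM in C57BL/6J library 1 and at 0.196 to 3.65 CPM in the other C57BL/6J libraries. In the Rag2-/-γc-/- libraries, where Cd22 was highest, Cd79b did not exceed 0.136 CPM and the complement receptor gene Cr2 had no counts. The 9 B cell markers other than Ighm, Bank1 and Fcrla summed to 0.686 to 1.37 CPM there, a sum formed after the values were seen, while those 3 stayed abundant in the same libraries (Ighm at 57.8 to 159 CPM, Bank1 at 28.2 to 64.1 CPM and Fcrla at 198 to 346 CPM). The full list matched 12 of 13 genes, and its sum was 478 ± 104 CPM in C57BL/6J and 428 ± 49.5 CPM in Rag2-/-γc-/- recipients (exact permutation adjusted p = 0.602) and came mostly from these 3 genes. C57BL/6J library 1, with 30 CPM of Cd22, had the highest sum of B cell markers of the series. The part of B cells in the Cd22 values was not tested.

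**Figure D2:**
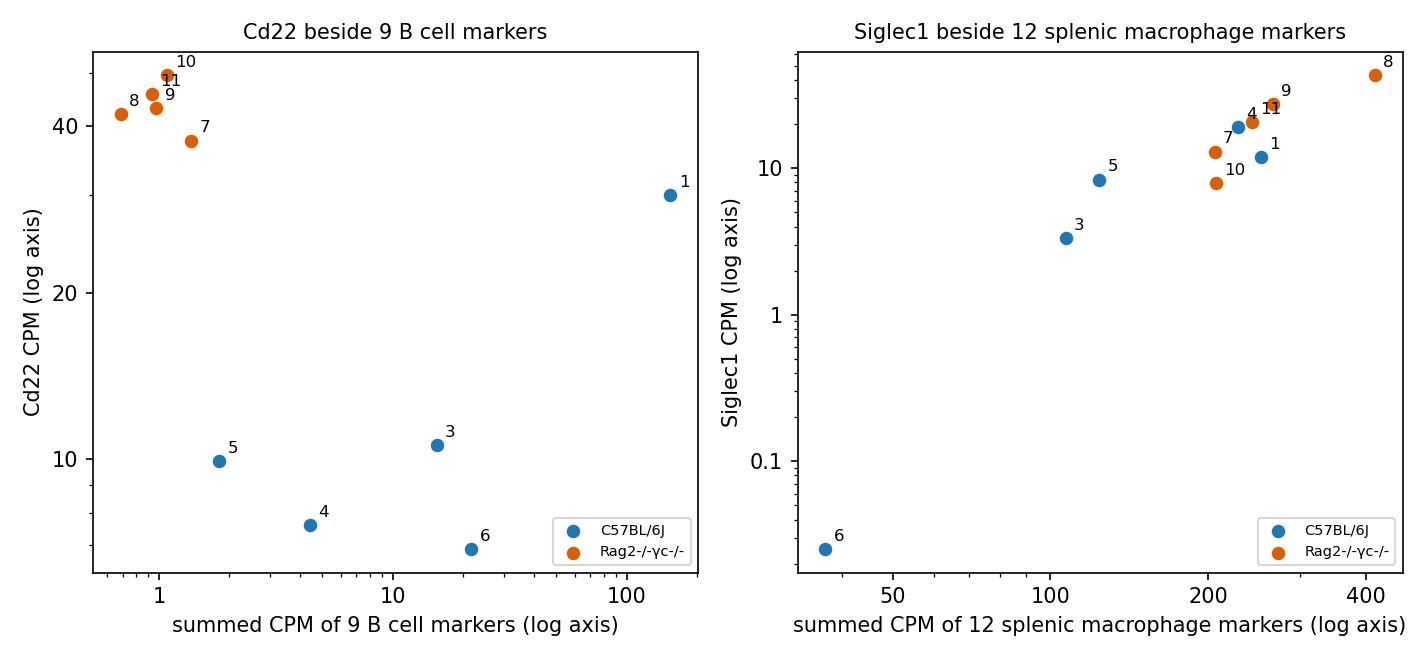
Cd22 CPM against the summed CPM of 9 B cell markers (left) and Siglec1 CPM against that of 12 splenic macrophage markers (right). There is 1 point per library, numbered, with C57BL/6J in blue and Rag2-/-γc-/- in orange and log axes throughout. The sums leave out Ighm, Bank1 and Fcrla (left) and Axl (right), a choice made after the values were seen. The Rag2-/-γc-/- points have Cd22 at 37.7 to 49.5 CPM with B cell sums of at most 1.37 CPM, and C57BL/6J library 6 is lowest in both Siglec1 (0.0252 CPM) and macrophage markers (37.1 CPM).

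Mag encodes myelin-associated glycoprotein (Siglec-4), best known from glia that wrap axons. It (chromosome 7, 30899183 to 30914327, minus strand) lies 18840 bases from Cd22 with no protein-coding gene of the table between them, and both are read from the same strand. Its level was 3.82, 3.11, 3.48, 2.2 and 2.57 CPM in C57BL/6J libraries 1, 3, 4, 5 and 6 and 8.51, 6.72, 6.41, 4.74 and 5.06 CPM in Rag2-/-γc-/- libraries 7 to 11. The groups did not overlap, and libraries 10 and 11 were the lowest of the upper group, the reverse of their place for Cd22. The fitted level was 2.08-fold higher in Rag2-/-γc-/- recipients (log2 fold change -1.05 ± 0.21, SE), and -0.69 without libraries 7, 8 and 9. Myelin genes were close to absent: Mobp had no counts and Mog did not exceed 0.152 CPM. The list of 7 glial markers summed to 91.3 ± 14.1 CPM in C57BL/6J and 88 ± 6.81 CPM in Rag2-/-γc-/- recipients (exact permutation adjusted p = 0.804), nearly all of it Cnp. On the other flanks, Ffar1 beside Cd22 and Hamp2 beside Mag had too few counts to be tested.

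Cd33 encodes a myeloid receptor that is used as a surface marker and drug target in human AML. The gene (chromosome 7, 43527456 to 43533171, minus strand) was at 5.53, 7.72, 7.99, 5.4 and 2.89 CPM in C57BL/6J libraries 1, 3, 4, 5 and 6. In Rag2-/-γc-/- libraries 7, 8 and 9 it was at 22.9, 19.6 and 19.3 CPM, and in libraries 10 and 11 at 7.09 and 9.43 CPM. Library 10 lay inside the range of the C57BL/6J libraries, so the groups overlapped. The log2 fold change was -1.41 ± 0.35 (SE; 2.66-fold higher in Rag2-/-γc-/- recipients), and -0.48 without libraries 7, 8 and 9. The nearest protein-coding gene on its higher-coordinate side, the zinc finger gene Zfp658 (29084 bases away, opposite strand), fell from 7.53 to 2.41 CPM in C57BL/6J recipients (log2 fold change -1.64 ± 0.30, SE; edgeR adjusted p = 0.00831, lower in 5 of 5 libraries than in any of the others).

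Siglec5, which GENCODE M21 names Siglecf, encodes Siglec-F, a receptor typical of eosinophils and alveolar macrophages, and was the most abundant Siglec gene. It (chromosome 7, 43351341 to 43359531, plus strand) was at 65.2, 81.5, 77.8, 72.5 and 89.2 CPM in C57BL/6J libraries 1, 3, 4, 5 and 6 and at 59.5, 63.5, 69.6, 65.8 and 73 CPM in Rag2-/-γc-/- libraries 7 to 11. The groups overlapped and the log2 fold change was small (0.22 ± 0.10, SE). Eosinophil granule genes were at or near 0 in the same libraries: Prg3 and Ear6 had no counts, Epx did not exceed 0.142 CPM and Prg2 0.118 CPM. The 7 eosinophil markers together summed to 2.8 ± 1.57 CPM in C57BL/6J and 6.58 ± 3.6 CPM in Rag2-/-γc-/- recipients (exact permutation adjusted p = 0.1), most of it Alox15 and Ccr3.

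Siglec1 was the most variable member. Sialoadhesin marks metallophilic macrophages of the spleen and can be raised by interferon. Its gene (chromosome 2, 131069220 to 131086765, minus strand) was at 11.9, 3.33, 19.1, 8.38 and 0.0252 CPM in C57BL/6J libraries 1, 3, 4, 5 and 6, the last of which is a single count. In Rag2-/-γc-/- libraries 7 to 11 it was at 13, 43.2, 27.3, 7.91 and 20.7 CPM. The groups overlapped widely, and the log2 fold change of -1.39 had an SE of 0.82, ranging from -1.93 without C57BL/6J library 4 to -1.01 without Rag2-/-γc-/- library 8. It was -2.69 by limma-voom and -0.75 without libraries 7, 8 and 9.

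Macrophage markers varied between libraries in more than one pattern. C1qa, a complement gene of tissue macrophages, was lowest at 5.81 CPM in C57BL/6J library 6 and highest at 78.2 CPM in Rag2-/-γc-/- library 8, the libraries where Siglec1 was lowest and highest. Timd4 was instead lowest in Rag2-/-γc-/- library 10 (0.751 CPM) and highest in C57BL/6J library 5 (17.9 CPM), and Slc40a1 was highest in Rag2-/-γc-/- library 10 (106 CPM). Leaving out Axl, which was at 1340 to 2270 CPM in every library, the other 12 macrophage markers summed to a median of 124 CPM in C57BL/6J libraries, with 37.1 CPM in library 6, and to 206 to 417 CPM, with a median of 243 CPM, in Rag2-/-γc-/- libraries, a sum also formed after the values were seen. The groups overlapped, since C57BL/6J library 4 was at 228 CPM and library 1 above the Rag2-/-γc-/- median. The whole list of 13 summed to 1890 ± 330 and 2140 ± 210 CPM (exact permutation adjusted p = 0.274), and 2 of its genes (Marco and Slc40a1) were lower and 1 (Timd4) was higher in C57BL/6J recipients in the edgeR test. In bulk RNA, fewer cells of a type and less RNA per cell cannot be told apart, and the part of macrophages in the Siglec1 values was not tested.

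Siglech, a gene used as a marker of plasmacytoid dendritic cells, was near the limit of detection. Its expected counts were 13, 9, 12, 3 and 7 in C57BL/6J libraries 1, 3, 4, 5 and 6 and 3, 6, 3, 6 and 9 in Rag2-/-γc-/- libraries 7 to 11, that is 0.0509 to 0.397 CPM, and no difference can be read at this depth. The other plasmacytoid genes differed widely. Klk1 and Cox6a2 did not exceed 0.0916 CPM and Ccr9 was at 0.0327 to 0.641 CPM, Spib and Ly6d reached 18.9 and 9.59 CPM in C57BL/6J library 1, and Pacsin1 was at 80.3 to 154 CPM and Ptprs at 36.9 to 95.7 CPM. Tcf4, a transcription factor gene, fell in C57BL/6J recipients (13.4 against 37.6 CPM; edgeR adjusted p = 0.00961), and Lair1, an inhibitory collagen receptor gene, rose (19.2 against 6.2 CPM; edgeR adjusted p = 0.0116). The list of 10 summed to 215 ± 30.9 CPM in C57BL/6J and 221 ± 33.2 CPM in Rag2-/-γc-/- recipients (exact permutation adjusted p = 0.833), mostly from Pacsin1 and Ptprs.

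The 3 Siglec genes outside the chosen set completed the family. Siglece, an inhibitory receptor of myeloid cells, was at 8.3 ± 2.08 CPM in C57BL/6J and 10.5 ± 2.51 CPM in Rag2-/-γc-/- recipients (SD, n = 5 each; log2 fold change -0.35; edgeR adjusted p = 0.32). Siglecg, an inhibitory receptor of B cells and dendritic cells, was at 15.6 ± 4.26 against 17.4 ± 2.18 CPM (log2 fold change -0.16; edgeR adjusted p = 0.556), with its highest C57BL/6J value, 23 CPM, again in library 1. Siglec15 averaged 0.0101 and 0.012 CPM and was not tested. Neither of the tested pair passed the threshold.

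Expressed as a share of all Siglec transcripts per kilobase in a library, Siglec5 made up 68 ± 8.23% in C57BL/6J recipients (SD, n = 5; 56.6 to 79.8%) and 49.2 ± 4.48% in Rag2-/-γc-/- recipients (42.9 to 54.3%). Cd22 made up 6.3 ± 4.59% and 18 ± 2.74%. Its share was 14.4% in C57BL/6J library 1 and 3.41 to 5.16% in the other 4, against 15.7 to 22.6% in the Rag2-/-γc-/- libraries. Siglec1 took 2.92 ± 2.52% and 6.25 ± 3.42%, and Cd33 1.85 ± 0.608% and 4.14 ± 1.86%. Siglece (11 ± 2.64% and 11.7 ± 2.02%) and Siglecg (7.95 ± 2.08% and 7.49 ± 0.855%) held like shares in both. The summed level of the 9 genes was 40.8 ± 1.74 CPM per kb in C57BL/6J recipients and 48.5 ± 4.07 in Rag2-/-γc-/- recipients. Because most of these genes are in the chosen set, the shares are a description.

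**Figure D3:**
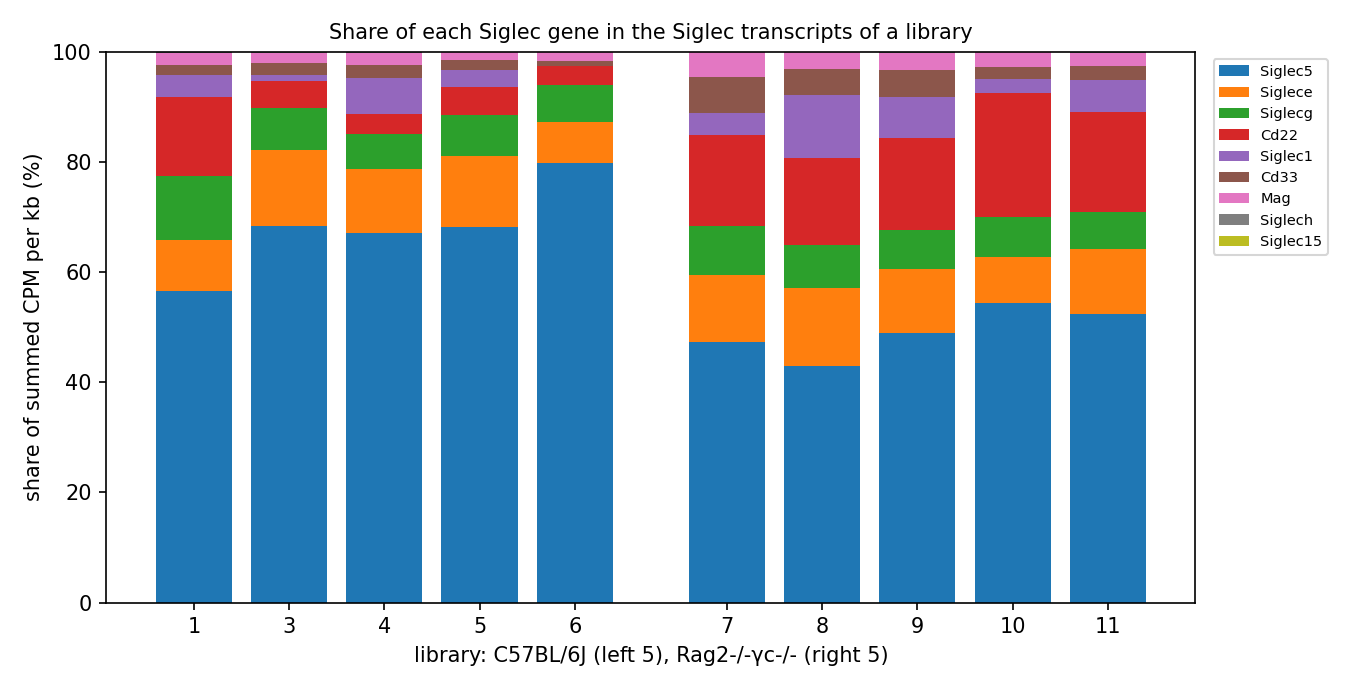
Share of each of the 9 Siglec genes in the summed CPM per kb of exon (vertical axis, percent), 1 bar per library, C57BL/6J libraries on the left and Rag2-/-γc-/- libraries on the right. Siglec5 takes 56.6 to 79.8% on the left and 42.9 to 54.3% on the right, and Cd22 takes 15.7 to 22.6% on the right.

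Among the enzymes, Neu3 was the member with the tightest separation. NEU3 trims sialic acid from gangliosides at the cell surface. Its gene (chromosome 7, 99811439 to 99828417, minus strand) was at 16.1, 18, 17.7, 20 and 15.5 CPM in C57BL/6J libraries 1, 3, 4, 5 and 6, against 6.56, 6.48, 5.75, 5.42 and 5.56 CPM in Rag2-/-γc-/- libraries 7 to 11. The 2 ranges were far apart, and libraries 7, 8 and 9 differed little from 10 and 11. The fitted level was 2.93-fold higher in C57BL/6J recipients (log2 fold change 1.55 ± 0.11, SE), and the log2 fold change lay between 1.48 (without libraries 10 and 11) and 1.67 (without libraries 7, 8 and 9) under all alternatives tried. The neighbouring gene Spcs2, a signal peptidase subunit gene 9151 bases away, was at 182 against 155 CPM and did not pass the threshold (log2 fold change 0.23; edgeR adjusted p = 0.243).

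Neu1, the lysosomal sialidase gene, was the more abundant of the pair in all libraries. It (chromosome 17, 34931253 to 34935953, plus strand) was at 85.1, 103, 108, 97.7 and 107 CPM in C57BL/6J libraries 1, 3, 4, 5 and 6 and at 143, 102, 99.4, 99.4 and 110 CPM in Rag2-/-γc-/- libraries 7 to 11. The groups overlapped, with library 7 above all others (log2 fold change -0.15 ± 0.12, SE). Per kilobase, the ratio of Neu1 to Neu3 was 5.16 ± 0.693 in C57BL/6J recipients (SD, n = 5; 4.37 to 6.17) and 16.6 ± 2.05 in Rag2-/-γc-/- recipients (14.1 to 19.5). Neu2 and Neu4, the other sialidase genes, had no counts in any library.

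Gne and Cmas had small fold differences between recipients. Gne (chromosome 4, 44034075 to 44084177, minus strand) was at 30.1, 27.7, 24.2, 24.3 and 25.1 CPM in C57BL/6J libraries 1, 3, 4, 5 and 6 and at 25.9, 24.7, 23.8, 24.7 and 26.3 CPM in Rag2-/-γc-/- libraries 7 to 11, the narrowest spread of the set (log2 fold change 0.07 ± 0.09, SE). Cmas (chromosome 6, 142756686 to 142775714, plus strand) was at 99, 90.7, 83.1, 78.1 and 87.2 CPM and at 103, 109, 107, 81.8 and 88.5 CPM in the same order. Its groups overlapped (log2 fold change -0.16 ± 0.10, SE), and libraries 10 and 11 lay within the C57BL/6J range. Of the remaining neighbours, Zfp715 beside Siglec5 (edgeR adjusted p = 0.278), Slc44a4 and Hspa1b beside Neu1 (0.833 and 0.922) and Clta beside Gne (0.789), did not pass the threshold. Adam33 and Hspa12b beside Siglec1, 4931406B18Rik beside Cd33, F730035P03Rik beside Neu3, and Abcc9 and Gm766 beside Cmas had too few counts to be tested.

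In the fit across all genes, 1 of the 9 tested members (Neu3) was past the edgeR threshold (Benjamini-Hochberg adjusted p under 0.05) as higher in C57BL/6J recipients and 3 (Cd22, Mag and Cd33) as lower, where 3.32% and 4.47% of all 13966 tested genes were called in these directions. The members had been chosen on this contrast, so nothing is read from that count. Their median log2 fold change was -0.16, beside 0.00 over all tested genes, and 3 of the 9 had groups that did not overlap, beside 8.50% of all tested genes (4.13% higher and 4.37% lower in C57BL/6J recipients). Cd33 lost its call in limma-voom and when any 1 of C57BL/6J libraries 1, 5 and 6 or Rag2-/-γc-/- libraries 7, 8 and 9 was left out, and none of the 3 lower members was past the threshold without libraries 7, 8 and 9 together, where Neu3 still was and the Rag2-/-γc-/- group held 2 libraries. Without libraries 10 and 11, Cmas joined the 3 lower members (log2 fold change -0.28), in a fit that called 2518 genes of the whole table lower.

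The rest of the pathway was tested gene by gene. Of 48 further genes in 6 lists (Siglecs, their signalling partners, synthesis, sialidases and recycling, sialyltransferases, and sialylated carrier proteins), 39 were tested. None of them rose and 3 fell in C57BL/6J recipients (edgeR adjusted p under 0.05), 7.69% of those tested beside 7.79% of all tested genes in either direction, and their median log2 fold change was -0.11. At an unadjusted p under 0.05, 3 were higher and 7 lower. No share over all genes was counted at that level, so nothing is read from it. DESeq2 called none higher and 5 lower, beside 803 higher and 1155 lower over the whole table. The 3 that fell were Tyrobp, St3gal6 and Npl. The count depended on the libraries, as did that of the whole table. Without libraries 10 and 11 there were 4 higher and 10 lower, beside 2786 and 2518 over the whole table. Without libraries 7, 8 and 9 there were none higher and 1 lower, beside 148 and 127. There were 6 lower without library 10 and 5 without library 11, beside 1323 and 849 over the whole table. Only 1 was lower when library 3, 4 or 9 was omitted, and 1 was higher when library 5 was. With 1 library left out, 275 to 1076 genes of the whole table were called higher and 304 to 1323 lower.

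**Figure D4:**
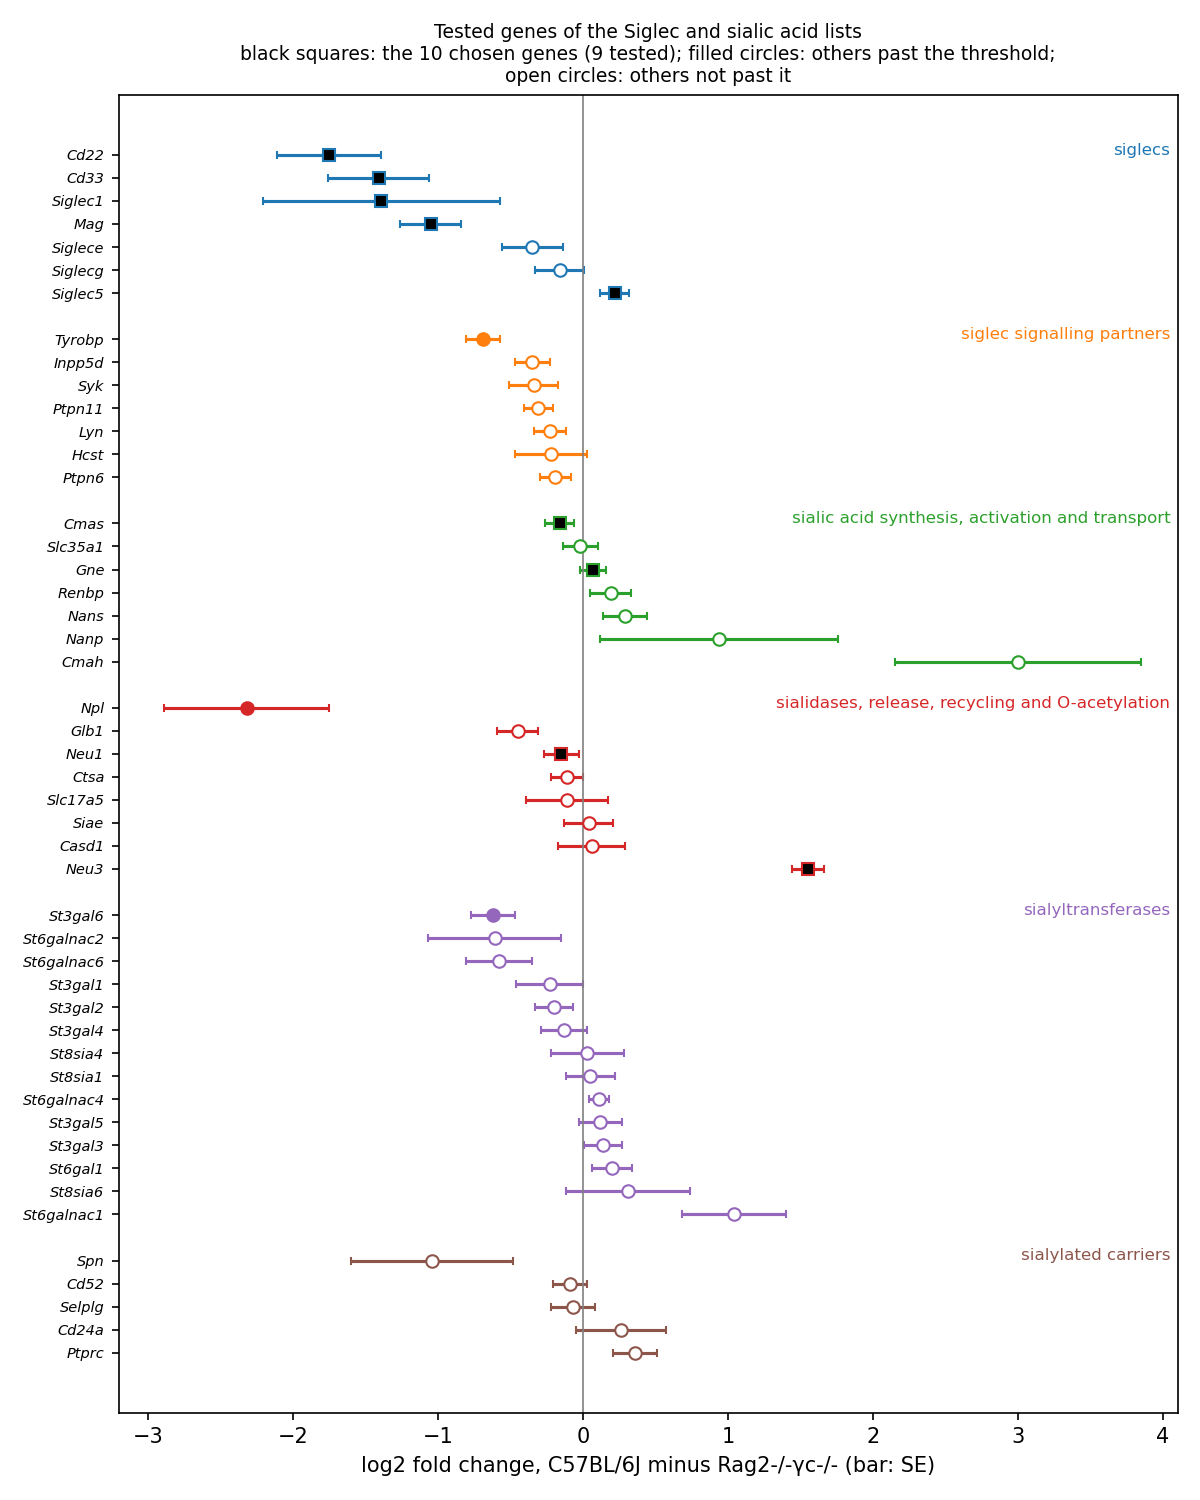
Log2 fold change (horizontal axis, C57BL/6J minus Rag2-/-γc-/-, with SE) of the 48 tested genes of the 6 lists, 1 row per gene. Black squares are the 9 tested members, filled circles the 3 other genes past the threshold (Tyrobp, Npl and St3gal6), and open circles the rest, most of which lie within 1 log2 unit of 0.

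Of 7 signalling partners of Siglecs 1 fell and none rose. Tyrobp, the gene of the DAP12 adaptor, was at 109, 96.6, 88.4, 87.7 and 92.2 CPM in C57BL/6J libraries 1, 3, 4, 5 and 6 and at 188, 159, 158, 123 and 138 CPM in Rag2-/-γc-/- libraries 7 to 11, with no overlap (log2 fold change -0.69 ± 0.12, SE; edgeR adjusted p = 0.00472). Its call held without any 1 library (edgeR adjusted p up to 0.017) and was lost without libraries 7, 8 and 9 (log2 fold change -0.45; edgeR adjusted p = 0.1). All 7 log2 fold changes were negative, but no share of negative values over all genes was counted, so nothing is read from the signs. The 6 genes other than Tyrobp did not pass the threshold (edgeR adjusted p from 0.086 for Ptpn11 to 0.593 for Hcst). Ptpn11 passed it with DESeq2 (adjusted p = 0.034) and without library 10 or 11 (edgeR adjusted p = 0.0275 and 0.0482). Inpp5d passed it without library 10 (edgeR adjusted p = 0.0271). Ptpn11, Inpp5d and Lyn did so without libraries 10 and 11 together (edgeR adjusted p up to 0.021). Without libraries 7, 8 and 9 together, their log2 fold changes were -0.07, -0.04 and -0.03. The phosphatase genes were abundant, with Ptpn6 at 403 ± 36.9 against 461 ± 61.4 CPM, Ptpn11 at 141 ± 7.58 against 176 ± 24.5 CPM and Inpp5d at 472 ± 34.5 against 601 ± 109 CPM (SD, n = 5 each). The kinase genes Lyn and Syk had log2 fold changes of -0.23 and -0.34, and the adaptor gene Hcst -0.22.

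Of the 5 further genes of synthesis and transport none passed the threshold. Nans, the sialic acid synthase gene, was at 111 ± 21.7 against 90.7 ± 15 CPM (edgeR adjusted p = 0.235, and 0.037 without libraries 10 and 11), and Slc35a1, the Golgi transporter gene, at 15.8 ± 2.2 against 16 ± 1.46 CPM (SD, n = 5 each). Renbp had a log2 fold change of 0.19, and Nanp one of 0.94 with an SE of 0.82, at 1.06 and 0.525 CPM. Cmah, which converts CMP-Neu5Ac to the Neu5Gc form found in mice, was at 11.3 CPM in C57BL/6J library 1 and 0.435 to 1.26 CPM in the other 4, against 0.163 to 0.47 CPM in the Rag2-/-γc-/- libraries. Its fitted level was 7.98-fold higher in C57BL/6J recipients with edgeR adjusted p = 0.0528, and 2.56-fold higher without library 1 (edgeR adjusted p = 0.0522). The call was gained without C57BL/6J library 5 (edgeR adjusted p = 0.0361), and limma-voom gave a log2 fold change of 1.92 (adjusted p = 0.16). The library with the highest Cmah was the one with the most B cell markers, whose part in it was not tested.

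Of 6 further tested genes of release, recycling and O-acetylation 1 fell. Npl, the lyase that breaks free sialic acid down, was low throughout, at 0 to 0.519 CPM in C57BL/6J and 0.98 to 2.01 CPM in Rag2-/-γc-/- libraries, without overlap (log2 fold change -2.32 ± 0.57, SE; edgeR adjusted p = 0.0305). Its call was lost without any 1 of 6 libraries (C57BL/6J 3, 4 and 5, Rag2-/-γc-/- 7, 8 and 9; edgeR adjusted p up to 0.083) and without 7, 8 and 9 together (0.34). Ctsa and Glb1, whose proteins form a lysosomal complex with NEU1, were at 380 ± 38.3 against 411 ± 51.8 CPM and 52.8 ± 4.51 against 72 ± 14.5 CPM (edgeR adjusted p = 0.514 and 0.0705). Slc17a5, the lysosomal exporter of sialic acid, and the acetyl-group enzymes Siae and Casd1 had log2 fold changes of -0.11, 0.04 and 0.06.

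Of 20 sialyltransferase genes 14 were tested, none rose and 1 fell. St3gal6, which adds sialic acid in the alpha-2,3 linkage, was at 59.5, 47.5, 54.9, 63.2 and 47.9 CPM in C57BL/6J libraries 1, 3, 4, 5 and 6 and at 63.8, 76.6, 84.8, 113 and 80.5 CPM in Rag2-/-γc-/- libraries 7 to 11. The groups came within 1 CPM of each other without overlapping (log2 fold change -0.62 ± 0.15, SE; edgeR adjusted p = 0.0272). The call was kept without libraries 7, 8 and 9 (log2 fold change -0.82; edgeR adjusted p = 0.041) and lost when any 1 of C57BL/6J libraries 3, 4 and 6 and Rag2-/-γc-/- library 9 was omitted (edgeR adjusted p up to 0.076). St6gal1, whose alpha-2,6 linkage is the ligand of CD22, was the most abundant by CPM, at 540 ± 116 against 471 ± 29.4 CPM (log2 fold change 0.20; edgeR adjusted p = 0.385). St3gal5, the GM3 synthase gene that makes a ganglioside substrate of NEU3, was at 295 ± 44.1 against 271 ± 60.6 CPM (log2 fold change 0.12; edgeR adjusted p = 0.621).

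None of the 5 carrier genes passed the threshold. Spn, which encodes the heavily sialylated CD43, a ligand of sialoadhesin, had its groups overlapping (log2 fold change -1.04; edgeR adjusted p = 0.256), and was at 17.1, 10.9 and 9.23 CPM in Rag2-/-γc-/- libraries 7, 8 and 9 and 2.45 and 4.45 CPM in 10 and 11. Cd24a, a ligand of Siglec-G, was at 187 ± 60.4 against 156 ± 70.9 CPM, and Cd52 at 860 ± 94.5 against 916 ± 145 CPM.

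To see which genes varied most like each member from mouse to mouse, the deviations of log2 CPM from the group means were compared over the 10 libraries with 9988 other genes averaging at least 5 CPM. Siglec1 was most like Stab1, a scavenger receptor gene of macrophages and sinus endothelium (Pearson r = 1.00, Spearman rho = 1.00), and Msr1 (r = 0.96, rho = 0.92). Stab1 shared with Siglec1 its lowest value in C57BL/6J library 6 (0.0503 CPM) and its highest in Rag2-/-γc-/- library 8 (74.2 CPM). Unlike Siglec1, it did not overlap between recipients (4.51 against 43.7 CPM; edgeR adjusted p = 0.0205). Cd33 was most like Lrp1 (r = 0.99, rho = 0.99) and Rgs14 (r = 0.98, rho = 0.89), and Siglec5 most like Itgae (r = 0.97, rho = 0.96), which encodes the CD103 integrin chain, and Slc31a2 (r = 0.93, rho = 0.95). Cd22 followed Ralgps2 (r = 0.97, rho = 0.90) and the B cell tetraspanin gene Cd37 (r = 0.95, rho = 0.77), with r = 0.98 for both among the C57BL/6J libraries, which include library 1, and 0.58 and 0.33 among the Rag2-/-γc-/- libraries. Neu3 was most like Mgat5, a gene of N-glycan branching, and Tmem38b (r = 0.93 for both, rho = 0.94 and 0.93). Mgat5 differed between recipients in the direction opposite to Neu3 (5.43 against 13.7 CPM; log2 fold change -1.33; edgeR adjusted p = 0.000409). Neu1 came closest to Pofut2 and Icam1 (r = 0.96 and 0.95, rho = 0.93 and 0.92), Cmas to Anxa1 and Pkib (r = 0.97 and 0.96, rho = 0.99 for both) and Gne to Dync1i2 (r = 0.92, rho = 0.90). Between recipients, Lrp1 fell in C57BL/6J mice (73.7 against 199 CPM; edgeR adjusted p = 0.019) and Itgae rose (373 against 87.7 CPM; edgeR adjusted p = 7.19e-05). Apart from Stab1, Mgat5 and these, the similar genes named here did not pass the threshold. The correlations were the highest of many, the points share libraries and the split of the Rag2-/-γc-/- group, and they are a description.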

How the data were processed

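Poly(A)-selected RNA of GFP+ splenocytes was sequenced as single reads from NEBNext Ultra libraries of 5 C57BL/6J and 5 Rag2-/-γc-/- recipients, per the labels' protocols. The authors deposited expected counts per Ensembl gene. The tools listed were cutadapt 1.11, STAR 2.5.2a, RSEM 1.2.30 and edgeR, on genome build GRCm38, per the submitters' processing notes. What each tool did, which annotation was used and what was filtered is not stated there. Of the 100 values of the members 5 were not whole numbers (tolerance 0). No strand setting is given, and Gne alone overlapped another listed gene, a U1 gene without counts.

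Counts were rounded and tested with the quasi-likelihood test of edgeR 4.0.16 (R 4.3.3; TMM, filterByExpr with minimum count 10 and total 15, group term alone, Benjamini-Hochberg adjustment over 13966 genes). SE is the unshrunken coefficient over the square root of F. Exon lengths came from GENCODE M21. The members, lists and alternatives were chosen with earlier results of these data known. Named were all members, all genes of the smaller lists, called or most abundant genes of the others, nearest protein-coding neighbours, and the 2 most similar genes of each member of at least 5 CPM. A few genes that this rule or the marker lists hold are not reported here. Marker sums of 9 lists were compared by an exact permutation test, two-sided, on CPM sums. The erythroid list is given in the closing section. Promoters are RefSeq's. Motifs and trimmed marker sums were chosen after the values were seen. The edgeR script was tested on simulated data. Alternatives were RLE, DESeq2 1.42.0, limma-voom (limma 3.58.1), other filters and leaving out libraries.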

Additional observations from a re-analysis of the deposited data

Results flagged for a closer look

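Of the 116 groups of 5 libraries examined among tested genes and marker sums, 12 had a library whose gap to its nearest neighbour took an unusually large part of the group's range (Dixon's test, critical value 0.71). Chance gives about 1 in 20 for independent groups with normally distributed values. These groups are CPM values that share the same 10 libraries, so the 12 cannot be set against that rate. C57BL/6J library 1 accounted for 8 of the 12. It was highest in Cd22 (30 CPM against 6.89 to 10.6 in the other 4), Siglecg (23 against 12.8 to 15.5), Cmah (11.3 against 0.435 to 1.26), St8sia6 (1.56 against 0.326 to 0.568), summed B cell markers (662 against 420 to 457) and summed erythroid markers (144 against 14.9 to 48.1). It was lowest in Siae (11.1 CPM against 17 to 17.4) and Ptprc (472 against 667 to 743). In C57BL/6J library 5 Nanp was at 2.28 CPM (0.482 to 0.88 in the others), and in C57BL/6J library 6 St3gal5 was at 373 CPM (269 to 283). In Rag2-/-γc-/- library 7 Neu1 was at 143 CPM (99.4 to 110), and in Rag2-/-γc-/- library 11 Syk was at 92.3 CPM (63 to 69.1).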

How the results depend on the processing

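No paired analysis was made, because the labels do not say whether recipients of the 2 groups shared a primary leukaemia. Of 153 alternative log2 fold changes of the members, 150 moved by less than 1 SD of the libraries. The other 3 were those without libraries 7, 8 and 9, with Mag at -0.69, Cd33 at -0.48 and Cmas at 0.04, a change of sign. The cause was not tested, and that fit has 2 Rag2-/-γc-/- libraries. Leaving out 1 library of 5 can hardly move a fold change by 1 SD, so the 150 are no measure of stability. For Siglec1 the SD was 2.37, wide enough to include its move from -1.39 to -2.69 by limma-voom. Genes called over the whole table (464 higher, 624 lower in C57BL/6J recipients) numbered 803 and 1155 with DESeq2, 2786 and 2518 without libraries 10 and 11, and 148 and 127 without libraries 7, 8 and 9, and ranged from 275 (without C57BL/6J library 6) to 1076 (without library 10) and from 304 to 1323 (the same libraries) when 1 library was left out. Further pathway genes (0 higher, 3 lower) numbered 0 and 5 with DESeq2, 1 and 3 with no filter, 4 and 10 without libraries 10 and 11, and 0 and 1 without libraries 7, 8 and 9, and ranged from 0 to 1 and from 1 to 6 when 1 library was left out. With no filter, 561 genes of the whole table were called higher and 604 lower. Members called lower numbered 0 without libraries 7, 8 and 9. The difference in summed leukaemia and myeloid markers was 796 CPM with raw totals, no longer past the threshold, and 596 to 813 CPM with 1 library left out. With 1 library left out, T cell sums differed by 42.7 to 55.8 CPM, NK cell sums by 7.65 to 9.7 CPM and erythroid sums by -133 to -90.3 CPM. The erythroid difference passed the threshold without C57BL/6J library 1 (exact permutation adjusted p = 0.0357). The T and NK cell differences missed it without library 7, 8 or 9, although their groups did not overlap. Npl and Cmah were not tested under the filter of 1 CPM in 5 libraries. Depth limits Siglech, with 3 to 13 counts per library.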

Other observations

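Erythroid markers, not described above, summed to 51.2 ± 53.6 CPM in C57BL/6J and 160 ± 62.8 CPM in Rag2-/-γc-/- recipients (SD, n = 5 each; exact permutation adjusted p = 0.0536 over 9 lists). Of its 8 genes, Epor, the erythropoietin receptor gene, fell in C57BL/6J recipients (0.159 against 0.531 CPM; edgeR adjusted p = 0.0341) and none rose.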
